A study of Mus musculus with 8 samples.

Results

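The 9 genes described here belong to the canonical Wnt pathway or are its direct targets: Ctnnb1, Gsk3b, Axin2, Sp5, Cdx1, Nkd1, Lef1, Tcf7 and Tcf7l1. They were chosen by name from 55291 genes in the count tables, and 9 of 9 were among the 16371 genes that passed the filter on low counts. They were measured by RNA-seq in mouse embryonic stem (ES) cells labelled E14, in 8 libraries made to examine how loss of the splicing factors DHX35 or GPATCH1 affects splicing. The lines, DHX35-dTAG and GPATCH1-dTAG, carry on the named protein a degron that dTAG-13 targets for degradation, and each was treated for 4 h with DMSO or 200 nM dTAG-13, with 2 libraries in each of the 4 groups. All 8 libraries therefore carried a tagged helicase or its cofactor, and no untagged line was among them. The lines were raised from picked colonies after puromycin selection, the clones used for RNA are not named, and a difference between lines cannot be told apart from a difference between clones.

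Canonical Wnt signalling works through β-catenin, the protein of Ctnnb1. Without a Wnt ligand, a destruction complex built on Axin proteins holds β-catenin while the kinase GSK3 marks it for degradation. With Wnt bound to Frizzled and LRP receptors, β-catenin accumulates, enters the nucleus and joins the TCF/LEF factors on their target genes. In mouse embryonic stem cells this pathway favours self-renewal, in large part by relieving repression by Tcf7l1, and the GSK3 inhibitor CHIR99021 is a common addition to their medium. The growth protocol attached to these samples lists CHIR99021, PD0325901 and LIF, but it describes R1 cells grown for another assay, so whether these cultures received the inhibitor is not settled by the sources used here.

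TCF/LEF factors recognise a short motif, searched here on both strands as the word CTTTGAA, the word CTTTGAT, the word CTTTGTA or the word CTTTGTT, in 300 bases of RefSeq promoter sequence (GRCm38.p6) that run from 250 bases before to 50 bases after a transcription start. One or more of these words were in 5544 of 32851 windows (16.9%), and 5121 of 27025 genes (18.9%) had them in at least 1 window. Windows were given for 8 members, all but Cdx1, and Sp5 and Lef1 were the members with a match. The sequence before the Sp5 start is shown because it held 2 matches within 1 window, and the site of Lef1 because Lef1 was the member with the widest gap between the lines over both treatments. In both, the motif is in capitals, read 5′ to 3′ on the plus strand. The first Sp5 match, CTTTGTT on the minus strand, starts 222 bases before the start site, and the other, CTTTGAT on the plus strand, 104 bases before it.
Sp5, chr2:70474673-70474922: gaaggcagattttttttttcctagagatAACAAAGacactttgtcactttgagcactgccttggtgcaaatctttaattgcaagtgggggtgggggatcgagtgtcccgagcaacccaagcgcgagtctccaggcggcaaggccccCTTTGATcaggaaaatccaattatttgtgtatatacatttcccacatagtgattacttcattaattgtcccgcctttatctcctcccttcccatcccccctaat
Lef1, chr3:131156136-131156164: caacctcagaaTACAAAGtaggattgcat
The Lef1 match, CTTTGTA on the minus strand, lies in the window of the last of its 4 starts in the table, inside the annotated gene, and the windows of the other 3 starts held none. Axin2, Nkd1, Tcf7, Tcf7l1, Ctnnb1 and Gsk3b had no match, which says only that these letters are not in those windows. A match is a description of the sequence and not evidence of binding.

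The libraries held between 12014203 and 14994173 counts. The 2 genes with the highest counts took between 1.27% and 20.9% of a library, and the first DMSO replicate of the DHX35-dTAG line was the least like the rest, with a mean correlation with the others of 0.976 against 0.988 to 0.990 for the rest. The 9 embryonic stem cell markers summed to between 4059 and 4845 CPM (read counts per 1000000 counts of the TMM-scaled library), while 4 neuroectoderm markers summed to between 87.7 and 97.9 CPM and 6 trophectoderm markers to between 23.4 and 35.8 CPM. The sums were at most 28.0 CPM for 5 primitive streak markers, 8.99 CPM for 6 primitive endoderm markers and 15.0 CPM for 6 markers of fibroblast feeder cells, with Lum at 0 in every library. Gpatch1 mRNA was between 6.88 and 7.30 CPM in GPATCH1-dTAG cells and between 23.1 and 25.6 CPM in DHX35-dTAG cells, and Dhx35 mRNA between 72.1 and 84.6 CPM in DHX35-dTAG cells and between 58.0 and 64.8 CPM in the other line. The tag acts on the protein, so mRNA levels do not check the depletion. In bulk RNA, fewer cells expressing a gene and less RNA per cell cannot be told apart.

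Levels per length (CPM per kb of exon, mean ± SD over the 8 libraries) set Ctnnb1 far above the other members, at 137 ± 2.56. Cdx1 followed at 25.2 ± 2.67, a homeobox gene of posterior patterning, and Tcf7l1 at 24.6 ± 2.14, the main repressor among the TCF/LEF factors of embryonic stem cells. Tcf7, an activating TCF factor, was at 19.8 ± 2.87. Sp5, a zinc finger repressor induced by Wnt signalling, was at 16.3 ± 1.62, Gsk3b, encoding the kinase of the destruction complex, at 14.6 ± 0.461, and Axin2, the feedback scaffold widely read as a reporter of the pathway, at 13.7 ± 1.15. Lef1, an activating TCF/LEF factor that is itself a Wnt target, was at 3.08 ± 0.483, and Nkd1, a feedback inhibitor that binds Dishevelled, at 0.346 ± 0.0676. From Cdx1 down to Axin2, the ranges of neighbours in this order overlapped when pooled over the libraries. Within a library, however, Tcf7l1 was above Tcf7 and Sp5 above Gsk3b in 8 of 8 libraries and Tcf7 above Sp5 in 7, while Gsk3b was above Axin2 in 6 and Cdx1 above Tcf7l1 in 5. Ctnnb1 lay above all of them without overlap, and Lef1 and Nkd1 lay below them and apart from each other. Nkd1 rested on 17 to 29 counts per library, and its changes were the least precise.

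**Figure D1:**
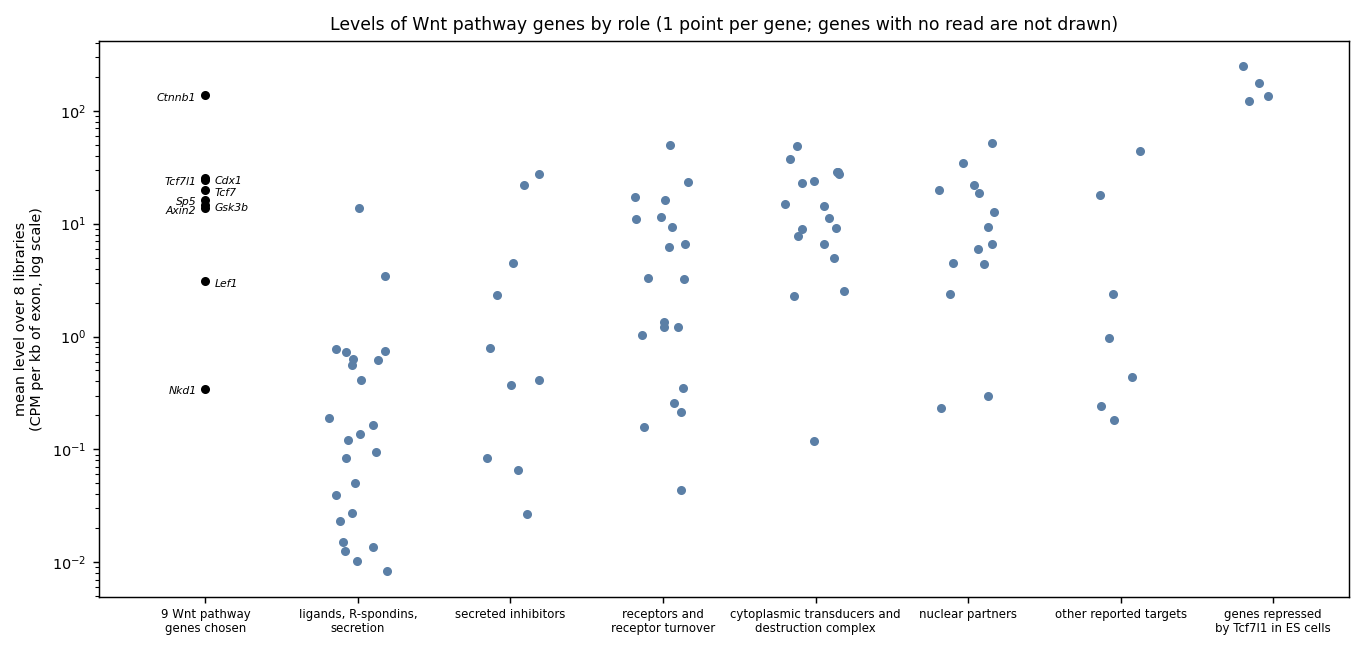
Mean level per length of each gene over the 8 libraries (CPM per kb of exon, log axis), with 1 point per gene, for the 9 members (black, named) and for 7 lists of other Wnt pathway genes (blue, spread sideways for legibility). Ctnnb1 stands at 137 and Nkd1 at 0.346, most ligands lie below 1, and the genes repressed by Tcf7l1 are the highest of the lists.

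After 4 h of DHX35 or GPATCH1 depletion, changes of the Wnt genes were small and none was called. None of the 9 members passed an adjusted p of 0.05 (edgeR's quasi-likelihood test, Benjamini-Hochberg over the 16371 genes) in DHX35-dTAG cells, where 0% of all genes did, or in GPATCH1-dTAG cells, where 0% did. At an unadjusted p under 0.05, 1 member (Tcf7l1) was counted in DHX35-dTAG cells against 5.39% of all genes, and 0 members in GPATCH1-dTAG cells against 2.97% of all genes, and DESeq2 called 0 members in either. The members had a median log2 fold change of 0.08 after DHX35 depletion and 0.01 after GPATCH1 depletion, beside -0.01 and 0.00 over all genes. With 1 library left out, these medians ran from 0.05 to 0.11 and from -0.01 to 0.02. For 7 members in the first line and 8 in the second, the 95% interval of the change lay within 1.5-fold either way. The exceptions were Tcf7 and Nkd1 in the first line and Nkd1 in the second.

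**Figure D2:**
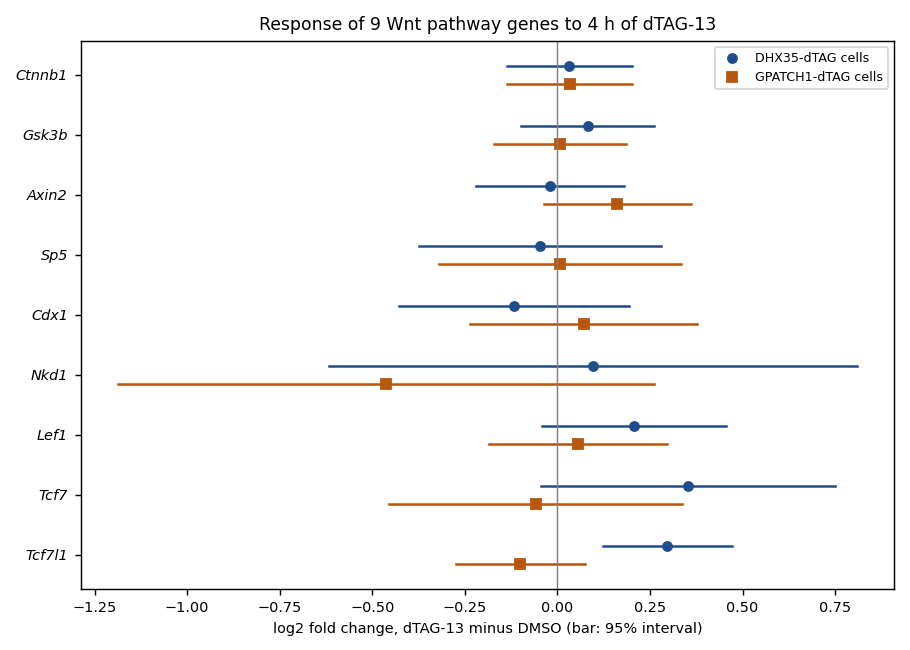
Log2 fold change of each member after 4 h of dTAG-13 against DMSO, in DHX35-dTAG cells (blue circles) and GPATCH1-dTAG cells (orange squares), with 95% intervals from edgeR's fit. The interval of Tcf7l1 in DHX35-dTAG cells, 0.12 to 0.47, is the one that leaves out 0 before adjustment, and the intervals of Nkd1 are the widest.

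Of the signal transducers, Ctnnb1 (chr9:120929216-120960507, plus strand) measured 689.9 and 702 CPM in DMSO and 717 and 706 CPM in dTAG-13 in DHX35-dTAG cells. In GPATCH1-dTAG cells it measured 715 and 708 CPM in DMSO and 732 and 723 CPM in dTAG-13. The highest library was 1.06 times the lowest, which made Ctnnb1 the steadiest member, and its log2 change was 0.03 ± 0.07 (SE) in each line. Gsk3b (chr16:38089001-38246084, plus strand) measured 136 and 143 CPM in DMSO and 145 and 150.1 CPM in dTAG-13 in DHX35-dTAG cells. It measured 145 and 141 CPM and then 139.95 and 148 CPM in GPATCH1-dTAG cells. The dTAG-13 libraries of DHX35-dTAG cells lay above their controls for both genes, those of GPATCH1-dTAG cells did so for Ctnnb1, and the Gsk3b changes of 0.08 ± 0.08 and 0.01 ± 0.08 (SE) were no larger than about their own errors. These are mRNA levels, and the pathway acts on the β-catenin protein, which was not measured here.

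Among the direct targets, Axin2 (chr11:108920349-108950783, plus strand) was the gene to read first. It measured 74.7 and 68.4 CPM in DMSO and 73.3 and 67.8 CPM in dTAG-13 in DHX35-dTAG cells, groups that overlapped. In GPATCH1-dTAG cells it measured 76.4 and 74.6 CPM in DMSO and 85.8 and 83.0 CPM in dTAG-13. The GPATCH1-dTAG libraries in dTAG-13 were therefore the highest of the 8, by a fold of 1.12 over DMSO (95% interval 0.975 to 1.28, edgeR adjusted p = 1), and the fold in DHX35-dTAG cells was 0.986 (0.858 to 1.13). The 2 responses differed by 0.18 ± 0.12 (SE) on the log2 scale, with an edgeR adjusted p of 0.862 for that difference.

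Sp5 (chr2:70474923-70477729, plus strand) measured 41.4 and 30.7 CPM in DMSO and 36.3 and 33.3 CPM in dTAG-13 in DHX35-dTAG cells. In GPATCH1-dTAG cells it measured 34.9 and 31.1 CPM and then 33.3 and 33.2 CPM. The widest gap was between the 2 DHX35-dTAG controls, with replicate 1 the highest library of all, and dTAG-13 and DMSO overlapped in both lines. Cdx1, on chromosome 18, showed the same kind of spread, at 49.9 and 37.2 CPM in the DHX35-dTAG controls and 42.4 and 37.8 CPM in dTAG-13. Its GPATCH1-dTAG libraries were close together, at 45.5 and 45.3 CPM in DMSO and 47.8 and 47.6 CPM in dTAG-13. The log2 changes of Sp5 were -0.05 ± 0.14 and 0.01 ± 0.14 (SE), and those of Cdx1 -0.12 ± 0.14 and 0.07 ± 0.14, in DHX35-dTAG and GPATCH1-dTAG cells. The DHX35 values turned sign with the control left out, from 0.19 without replicate 1 to -0.24 without replicate 2 for Sp5 and from 0.11 to -0.31 for Cdx1. Nkd1 (chr8:88521354-88594884, plus strand) measured 1.99 and 1.28 CPM in DMSO and 1.71 and 1.77 CPM in dTAG-13 in DHX35-dTAG cells, and 1.87 and 1.50 CPM and then 1.11 and 1.37 CPM in GPATCH1-dTAG cells. The dTAG-13 libraries of GPATCH1-dTAG cells were the lower group, with a fold of 0.726 whose interval, 0.439 to 1.20, reached well past 1 on these few counts. With 1 library left out, that log2 change of -0.46 ran from -0.61 (without dTAG-13 replicate 2) to -0.28 (without DMSO replicate 1). After DHX35 depletion its log2 change of 0.10 ± 0.32 (SE) became 0.43 without replicate 1 and -0.19 without replicate 2 of the controls.

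**Figure D3:**
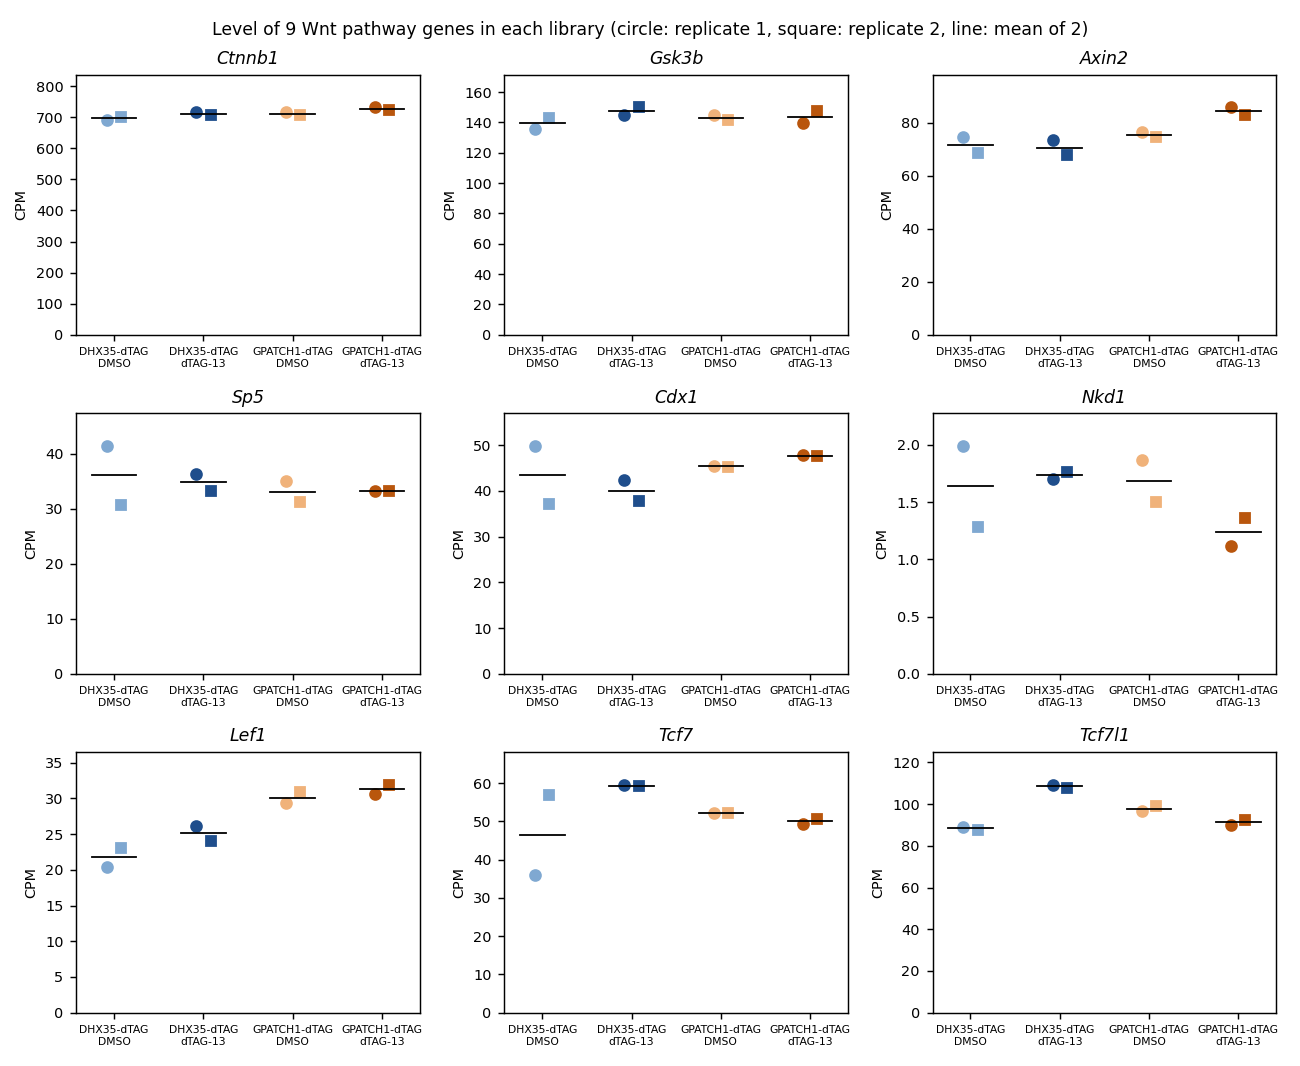
CPM of each member in each library by group, with replicate 1 as a circle, replicate 2 as a square and the mean of the 2 as a line; every vertical axis starts at 0. The 4 GPATCH1-dTAG libraries of Lef1 sit above the 4 DHX35-dTAG libraries, and for Tcf7 replicate 1 of DHX35-dTAG cells in DMSO, at 35.9 CPM, sits below the other 7.

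The last 3 members are TCF/LEF factors. Tcf7l1 (chr6:72626378-72789254, minus strand) measured 89.2 and 87.6 CPM in DMSO and 109 and 108 CPM in dTAG-13 in DHX35-dTAG cells. In GPATCH1-dTAG cells it measured 96.6 and 99.0 CPM in DMSO and 89.9 and 92.6 CPM in dTAG-13. The groups did not overlap in either line and the order was opposite, with dTAG-13 above DMSO in DHX35-dTAG cells and below it in GPATCH1-dTAG cells. The fold was 1.23 (95% interval 1.09 to 1.39) after DHX35 depletion and 0.933 (0.827 to 1.05) after GPATCH1 depletion, and neither passed (edgeR adjusted p = 0.715 and 1). The difference of the 2 responses was -0.40 ± 0.11 (SE) on the log2 scale, also short of the threshold (edgeR adjusted p = 0.862). For that difference 0 members passed, as did 0% of all genes, and 1 member against 3.9% of all genes had an unadjusted p under 0.05.

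The DHX35-dTAG libraries in dTAG-13, the highest for Tcf7l1, were also libraries with a large share of counts in the 2 top genes, 11.98% and 20.2%, against 3.15% and 1.54% in their controls. In GPATCH1-dTAG cells those shares were 4.23% and 20.9% in DMSO, the group with more Tcf7l1, and 1.27% and 2.02% in dTAG-13. With the log2 of this share as a covariate, the Tcf7l1 change after DHX35 depletion was 0.25 ± 0.15 (SE) in place of 0.30 ± 0.08, and the difference of the responses -0.31 ± 0.27. The same covariate moved some other members farther from 0, with Tcf7 after DHX35 depletion at 0.61 ± 0.33 (SE) in place of 0.35 ± 0.18, its difference of the responses at -0.90 ± 0.58 in place of -0.41 ± 0.25, and Cdx1 after DHX35 depletion at -0.23 ± 0.26 in place of -0.12 ± 0.14. The share and the groups moved together in these 8 libraries, and its part in the Tcf7l1 values beyond this fit was not tested. Leaving out any 1 library kept the Tcf7l1 change in DHX35-dTAG cells between 0.29 and 0.31.

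**Figure D4:**
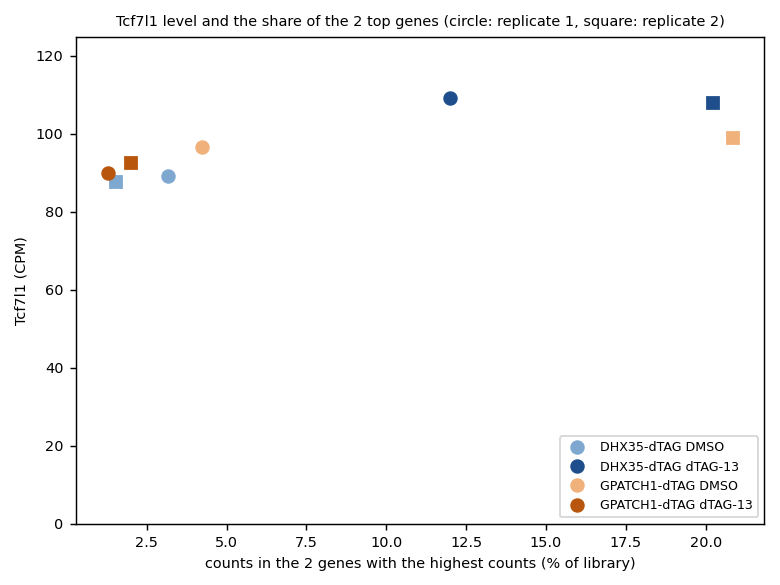
Tcf7l1 in CPM (vertical axis, from 0) against the percentage of a library's counts in the 2 genes with the highest counts, for each of the 8 libraries, coloured by group. The libraries with shares of 1.27% to 3.15% lie between 87.6 and 92.6 CPM, and those with 4.23% to 20.9% between 96.6 and 109 CPM.

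Tcf7 (chr11:52252371-52283014, minus strand) measured 35.9 and 56.8 CPM in DMSO and 59.6 and 59.1 CPM in dTAG-13 in DHX35-dTAG cells. In GPATCH1-dTAG cells it measured 52.1 and 52.1 CPM and then 49.4 and 50.7 CPM. Replicate 1 of the DHX35-dTAG controls, the library that stood apart, was the lowest by far and carried most of the log2 change of 0.35 ± 0.18 (SE) after DHX35 depletion. Without that library the change was 0.06 ± 0.08, and without replicate 2 in its place it was 0.73 ± 0.09. The difference of the 2 responses of Tcf7, -0.41 with all libraries, was -0.12 without replicate 1 and -0.79 without replicate 2. Lef1 (chr3:131110471-131224356, plus strand) measured 20.4 and 23.0 CPM in DMSO and 26.2 and 24.0 CPM in dTAG-13 in DHX35-dTAG cells, and 29.3 and 30.9 CPM and then 30.6 and 31.9 CPM in GPATCH1-dTAG cells. The DHX35-dTAG groups did not overlap, with a fold of 1.15 (0.971 to 1.37) that did not pass, and the GPATCH1-dTAG groups overlapped.

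Which DHX35-dTAG control was kept decided the count of called members. Without replicate 1, 0 members and 0.0117% of all genes passed after DHX35 depletion. Without replicate 2, 3 members passed (Tcf7, Tcf7l1 and Cdx1), but so did 28.8% of all genes, in a fit where replicate 1 was the lone control and was assumed to vary like the other groups. Over all 8 libraries, the DMSO and dTAG-13 values of 5 members did not overlap in DHX35-dTAG cells (Ctnnb1, Gsk3b, Lef1, Tcf7 and Tcf7l1, all higher), against 28.7% of all genes. In GPATCH1-dTAG cells 6 members did not overlap, Ctnnb1, Axin2 and Cdx1 higher and Tcf7, Tcf7l1 and Nkd1 lower, against 41.8% of all genes. Averaged over both lines, dTAG-13 gave 0 members at the threshold (0% of all genes), 0 at an unadjusted p under 0.05 (3.37% of all genes) and 0 without overlap (2.25% of all genes), and the median change of the members was 0.04.

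Between the lines, Lef1 was the member with the clearest difference. Its 4 GPATCH1-dTAG libraries, at 29.3 to 31.9 CPM, lay above the 4 DHX35-dTAG libraries, at 20.4 to 26.2 CPM. The fold, taken over both treatments, was 1.31 (95% interval 1.16 to 1.48), from a mean of 23.4 to 30.7 CPM, with an edgeR adjusted p of 0.0714. It was 1.38 within DMSO and 1.25 within dTAG-13 (edgeR adjusted p = 0.27 and 0.452). Lef1 thus missed the threshold over both treatments, though all 4 libraries of a line lay on the same side, and with no filter on low counts it passed, at a log2 difference of 0.41 (edgeR adjusted p = 0.00585), in a fit where 2.73% of all genes passed. The summed ES cell markers also separated the lines, at 4339 to 4845 CPM in the DHX35-dTAG libraries and 4059 to 4199.5 CPM in the GPATCH1-dTAG libraries. Of the 9 markers, Utf1 was called between the lines over both treatments, as were 0.666% of all genes. The other ES cell markers were called in no comparison. The summed primitive endoderm markers were low and lay mostly the other way, at 5.39 to 7.25 CPM in the DHX35-dTAG and 7.10 to 8.99 CPM in the GPATCH1-dTAG libraries, ranges that overlapped. The part of these marker differences in the member differences was not tested. The comparisons within a treatment and over both share libraries, and the DHX35-dTAG controls also serve the DHX35 depletion.

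Axin2 came next, with a fold of 1.12 (1.02 to 1.24) over both treatments (edgeR adjusted p = 0.268). In dTAG-13 the fold was 1.20 (1.04 to 1.37) and the groups did not overlap, and in DMSO it was 1.06 (0.919 to 1.21) with groups that overlapped. The contrast between these 2 values is the difference of the responses given above, which was not called. Tcf7l1 went in opposite directions by treatment, with a fold of 1.11 (0.98 to 1.25) in DMSO and 0.84 (0.744 to 0.947) in dTAG-13, and 0.964 (0.885 to 1.05) over both. Cdx1 had a fold of 1.11 (0.958 to 1.30) over both treatments, and Gsk3b and Ctnnb1 stayed at 0.9995 and 1.02 with intervals inside 0.915 to 1.11.

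None of the members passed in any comparison of the lines. In DMSO, 0 members passed against 0.0916% of all genes, 1 (Lef1) had an unadjusted p under 0.05 against 12.9%, and 3 did not overlap, all higher in GPATCH1-dTAG cells, against 43.1%. In dTAG-13, 0 passed against 0.0916%, 3 (Axin2 and Lef1 higher, Tcf7l1 lower) had an unadjusted p under 0.05 against 8.47%, and 8 did not overlap, 4 higher and 4 lower, against 45.7%. Over both treatments, 0 passed against 0.666%, 2 (Lef1 and Axin2) had an unadjusted p under 0.05 against 15.1%, and 1 (Lef1) did not overlap against 11.6%. The median log2 difference of the members was 0.07 in DMSO, -0.04 in dTAG-13 (-0.06 to 0.00 with 1 library left out) and -0.000793 over both.

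**Figure D5:**
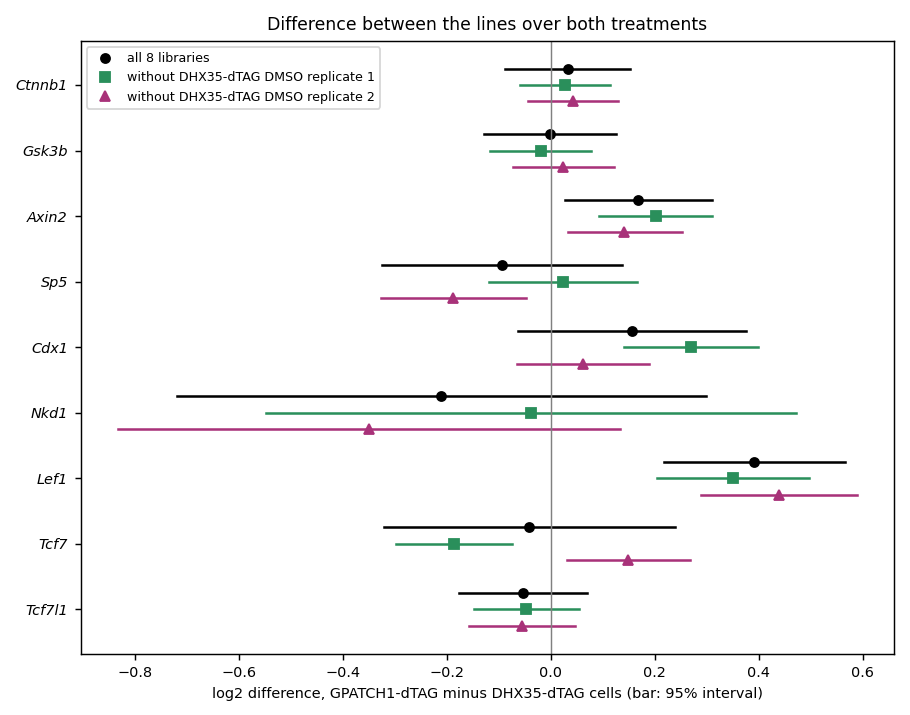
Log2 difference of each member between GPATCH1-dTAG and DHX35-dTAG cells over both treatments, with 95% intervals, from all 8 libraries (black circles), without replicate 1 (green squares) and without replicate 2 (purple triangles) of DHX35-dTAG cells in DMSO. Lef1 stays between 0.35 and 0.44, while Tcf7 moves from -0.19 to 0.15 with the library left out.

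The calls between the lines depended on the DHX35-dTAG controls, and leaving out any of the other 6 libraries gave 0 called members. Without replicate 1, 4 members passed over both treatments (edgeR adjusted p = 0.00525 for Lef1, 0.0133 for Cdx1, 0.027 for Axin2 and 0.0488 for Tcf7), against 5.29% of all genes. Without replicate 2, 3 members passed (edgeR adjusted p = 0.000165 for Lef1, 0.04 for Sp5 and 0.0467 for Axin2), against 29.9% of all genes, so 3 of 9 was near the background. Within DMSO, the Axin2 difference on the log2 scale was 0.14 without replicate 1 and 0.02 without replicate 2, and that of Lef1 0.38 and 0.57. The Tcf7 difference over both treatments was -0.19 without replicate 1 and 0.15 without replicate 2. In dTAG-13 alone, leaving out replicate 1 gave 2 called members, Axin2 and Tcf7l1 (edgeR adjusted p = 0.0321 and 0.0274), against 3.87% of all genes. Leaving out replicate 2 called the same 2 members (edgeR adjusted p = 0.0339 and 0.0283), against 3.79% of all genes. No dTAG-13 library was removed in either setting, and the log2 differences, 0.26 and -0.25, were those of the full fit.

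The wider pathway was read from 99 further genes in 7 lists, of which 80 passed the filter on low counts. In every comparison 0 of the 80 rose and 0 fell at the adjusted threshold. At an unadjusted p under 0.05, 4 were higher and 0 lower after DHX35 depletion, 0 higher and 2 lower after GPATCH1 depletion, and 7 higher and 12 lower in GPATCH1-dTAG than in DHX35-dTAG cells over both treatments, against 5.39%, 2.97% and 15.1% of all genes. The first 2 of these counts were near the background. Their median log2 changes were 0.03, -0.02 and -0.02 in those comparisons, near the medians over all genes.

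The ligand list, which also held the secretion factors Porcn and Wls, was low, with 12 of 25 genes past the filter and Wnt1 without a read in any library. Its highest members per length were Porcn, the acyltransferase that lipidates Wnt proteins, at 13.9 ± 1.66 and Wnt5b at 3.47 ± 0.456. Porcn differed between the lines by -0.30 on the log2 scale, GPATCH1-dTAG minus DHX35-dTAG (SE 0.07, edgeR adjusted p = 0.13), and its responses to dTAG-13 were -0.05 in both lines. Of 11 secreted inhibitors, 7 passed the filter, led by Notum, an enzyme that removes the lipid from Wnt, at 27.3 ± 3.22 and the Wnt-binding Sfrp1 at 22.0 ± 2.10. Notum, itself often induced by the pathway, changed by -0.25 ± 0.14 and 0.10 ± 0.14 (SE) on the log2 scale after DHX35 and GPATCH1 depletion.

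Of 20 receptors and receptor turnover genes, 19 passed the filter. The Frizzled receptors Fzd5 and Fzd10 had the highest levels per length, 49.6 ± 2.67 and 23.3 ± 3.55. Fzd10 had the smallest adjusted p of the 80 genes between the lines (0.078, edgeR), with a mean of 66.4 CPM in DHX35-dTAG and 84.9 CPM in GPATCH1-dTAG cells. All 18 cytoplasmic genes passed the filter, with the β-catenin kinase Csnk1a1 at 48.7 ± 2.10 and the tankyrase Tnks2, which targets Axin for turnover, at 37.1 ± 1.08. Their responses were small, between -0.06 and 0.04 on the log2 scale for both genes in both lines.

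All 14 nuclear partners passed the filter, and the Groucho family genes Tle5 and Tle4 led them at 51.6 ± 2.79 and 34.4 ± 2.56. Tle4 changed by 0.20 ± 0.10 (SE) after DHX35 depletion and by -0.0013 ± 0.10 after GPATCH1 depletion. Its level per length ran from 28.5 to 37.0 over the 8 libraries. How far the DHX35 responses of the listed genes rest on replicate 1 of the DHX35-dTAG controls, the library that stood apart, was not examined. Among 6 of 7 other reported targets past the filter, the cell cycle gene Ccnd1 was at 43.8 ± 3.14 and Myc at 18.0 ± 1.37, both of which answer to many other signals. Myc changed by 0.26 ± 0.09 (SE) after DHX35 depletion (edgeR adjusted p = 0.715). Most of these targets went the other way there, with 2 of the 6 changes positive, 4 negative and a median of -0.19. After GPATCH1 depletion 3 were positive and 3 negative, with a median of -0.02. The 4 genes known to be repressed by Tcf7l1 in these cells included the highest levels of all lists, with Nanog at 249.6 ± 17.8 and Tfcp2l1 at 174.8 ± 4.60. All 4 had log2 changes between 0.03 and 0.15 after DHX35 depletion, when Tcf7l1 itself was at its highest. Over all genes tested, 7935 of 16371 changes were positive there. After GPATCH1 depletion, when Tcf7l1 was lower, the 4 lay between -0.0012 and 0.11, with 3 above 0. None passed the test, and a relation of these genes to the Tcf7l1 level was not tested.

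Over the 8 libraries, the 3 tested genes whose log2 CPM followed Axin2 most closely were Gtf2i (Pearson r = 0.979), Brd2 (0.964) and Atic (0.964). Among the members, Cdx1 (0.804), Ctnnb1 (0.714) and Lef1 (0.67) followed it most, at ranks 280, 637 and 862 among the other genes tested. Sp5 was at 0.0911, and Tcf7, Tcf7l1, Nkd1 and Gsk3b were below 0. Tcf7 had a Pearson r of -0.345 and a Spearman rho of -0.738, larger in size than the rho of Ctnnb1 (0.643) or Lef1 (0.571). These values describe 8 libraries that share lines and depth, and with the best 3 picked from all genes tested they carry no test.

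Some reads may come from overlapping genes, since the strand setting of the counting is not given in the sources used here. Ulk4 overlaps 14.6% of the exonic length of Ctnnb1 on the opposite strand, and its counts were 1.04% of those of Ctnnb1. Antisense genes overlap 3.8% of the exonic length of Axin2 and 4.56% of that of Tcf7l1, with counts of 0.918% and 1.02% of theirs. An antisense gene also overlaps 13.7% of the exonic length of Lef1. It was not among the genes counted, so its counts could not be set beside those of Lef1.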

How the data were processed

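Libraries were made from total RNA after removal of ribosomal RNA, with a stranded kit and human DLD-1 RNA as a spike-in. Per the labels, the submitters' processing notes list Trim Galore 0.6.6, FastQC 0.11.9, STAR 2.7.5c, DESeq2 1.26.0 and the builds mm10 and hg19. The authors deposited raw read counts per gene, 1 table per library. The counting program, annotation and strand setting are not given in the sources used here, and spike-in reads were not used here.

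Groups and replicates came from the labels, which do not say whether replicates were separate cultures, so p-values measure the spread between these libraries. The test on these counts was edgeR 4.0.16 under R 4.3.3 (glmQLFit, glmQLFTest, TMM, filterByExpr, 1 term per group, all 8 libraries, Benjamini-Hochberg over 16371 genes, threshold 0.05). The code was tested on simulated data. The common dispersion of 0.0125 corresponds to a coefficient of variation of 11.2%. Standard errors are the log2 change divided by the square root of F. CPM use TMM-scaled totals, correlations log2 CPM with a prior count of 2, and levels per length the exon length in GENCODE M21 (GRCm38). Replicates of a group were not duplicates (chi-square per gene 5.32 to 132).

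Named genes were the members, any listed gene past the threshold, the 2 highest per length in each list, and the 3 genes most like Axin2. The members and lists were chosen with earlier results of these data known. Aes was matched as Tle5 through RefSeq synonyms. Alternatives were DESeq2 1.42.0, its size factors in edgeR, 2 other filters, the 2 top-count genes removed, a replicate block, a robust prior, a fit to the compared groups alone, and leave-one-out fits. The share of the 2 top genes as a covariate was chosen after seeing the data.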

Additional observations from a re-analysis of the deposited data

How the results depend on the processing

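No member was called with all libraries and the main settings, so no call could reverse. Of 1044 values of single members under the alternatives, 23 became called and 48 uncalled values changed sign. With no filter on low counts, 1 member (Lef1) was called between the lines in DMSO, as were 3.02% of all genes, and 1 (Lef1) over both treatments, as were 2.73%. Leaving out 1 library gave 0 to 3 called members after DHX35 depletion, 0 to 3 for the difference of responses, 0 to 3 between lines in DMSO, 0 to 2 in dTAG-13, 0 to 4 over both treatments and 0 to 1 for dTAG-13 across both lines, all above 0 only when a DHX35-dTAG DMSO library was left out. Beside the 3 for the difference of responses, the 3 between lines in DMSO and the 1 for dTAG-13 across both lines, 20.9%, 34.3% and 16.2% of all genes passed. The members' median ran from -0.125 to -0.0417 for the difference of responses, 0.054 to 0.144 between lines in DMSO, 0.0358 to 0.0907 for dTAG-13 across both lines and -0.0166 to 0.0435 between lines over both treatments, and with the covariate it was -0.125 for the difference of responses; the cause was not tested. It ran from 0.0538 to 0.11 after DHX35 depletion, from -0.0143 to 0.0247 after GPATCH1 depletion and from -0.0646 to 0.000944 between lines in dTAG-13, so its sign was not stable in the last 2 of these, nor between lines over both treatments. With the replicate block, 0 members were called in every comparison, with 132 genes in place of 109 between the lines over both treatments, and it changed no call of a member. Same-numbered libraries of different groups correlated at 0.0372 to 0.23 over 6 pairs of groups, so the numbers were not taken to pair them.

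Counts over all genes depended more on the setting. Between the lines over both treatments, 109 genes were called, against 138 with DESeq2, 82 with the stricter filter of 10 counts in each library, 890 with no filter, 19 with the covariate and 16 to 5143 with a library left out. Within DMSO and within dTAG-13, 15 and 15 became 47 and 48 with DESeq2, 4 and 4 with that stricter filter, 986 and 158 with no filter, 2 and 342 with only the libraries compared, 4 and 2 with the covariate, and 4 to 5886 and 4 to 660 with a library left out. From 0, DHX35 depletion reached 1 with DESeq2, 1 with only the libraries compared, 345 with no filter and up to 4947 with a library left out, and GPATCH1 depletion 21 with no filter, 127 with only the libraries compared and up to 51. The difference of responses reached 9 with DESeq2, 2 with the block, 140 with no filter and up to 3588, and dTAG-13 across both lines 3, 85 and up to 2790 with DESeq2, no filter and a library left out. The highest values were those with the second DHX35-dTAG DMSO library left out, except 660, with the first left out, and 51, which either gave. Nkd1, with at most 29 counts, limits its own precision.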

Other observations

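The 3 genes with the highest correlation with Axin2 are given by their levels. Their Spearman rho with Axin2 over the 8 libraries was 1 for Gtf2i, 0.976 for Atic and 0.857 for Brd2. Gtf2i, a general transcription factor, had its highest libraries in GPATCH1-dTAG cells in dTAG-13, at 190.1 and 183 CPM, and its lowest at 147 CPM in replicate 2 of DHX35-dTAG cells in dTAG-13. Brd2, a bromodomain protein that binds acetylated histones, was at 455 and 449.9 CPM in the same GPATCH1-dTAG libraries and at most 424 CPM elsewhere. Atic, an enzyme of purine synthesis, was at 272 and 270.1 CPM there and at most 257 CPM elsewhere.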
